A study of Saccharomyces cerevisiae with 3 samples.

Results

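The genes described here encode the proteins of yeast RNase P and RNase MRP. They are POP1 (YNL221C), POP3 (YNL282W), POP4 (YBR257W), POP5 (YAL033W), POP6 (YGR030C), POP7 (YBR167C), POP8 (YBL018C) and RPP1 (YHR062C), which serve both enzymes, RPR2 (YIR015W), which belongs to RNase P only, and SNM1 (YDR478W), which belongs to RNase MRP only. They were chosen by name from the platform annotation of the array, and they are 10 of the 5325 genes it names. Each of the 10 genes had exactly 2 probes. RNase P is an RNA-based endonuclease that removes the 5′ leader from precursor tRNAs. RNase MRP is its eukaryotic relative, cuts the ribosomal RNA precursor in the first internal transcribed spacer, at a place called A3, and also cleaves some mRNAs. Each enzyme is assembled on an RNA of its own, while most of the proteins are the same, and yeast needs both enzymes to live.

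DNA of a pooled Saccharomyces cerevisiae variomics library of essential genes was compared on 2-colour tag arrays. In such a library each strain carries sequence variants of 1 gene and is marked by short DNA tags, so the signal of a tag follows the abundance of its strain. There was 1 array each of cycloheximide-selected, rapamycin-selected and tunicamycin-selected DNA (Cy5), and each was set against untreated DNA of the pool (Cy3). Cycloheximide blocks translation elongation, rapamycin inhibits TOR kinase in complex with Fpr1, and tunicamycin inhibits Alg7, the enzyme that starts N-linked glycan synthesis. Cells of every group had been sporulated and grown in selective medium, per the labels' protocols. Amounts stand in the sample descriptions, 30 ng under cycloheximide, 20 ng under rapamycin and 3 "vg" under tunicamycin, and the rapamycin description has the word "single" in place of pool. The sources used here give neither the meaning of these words nor the genotype of the strains or the length of the selection. Drug and array cannot be told apart in this design, and no difference between drugs was tested.

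A probe value is the deposited log2 ratio, likely drug-selected over untreated from the dyes in the labels, minus the median of its array. The deposited medians lay between -1.32 and -0.74. The measured probes of a gene were averaged to its gene value, and an SD always refers to the spread of its measured probes within an array. Of 22575 spots, between 18680 and 19558 were measured on an array. The rest were empty or held a value equal to the log2 of 100000, far above all others, which was read as a code and left out. The spread unit of an array, the scaled median absolute deviation of all its gene values, was 0.92 under cycloheximide, 1.06 under rapamycin and 0.91 under tunicamycin. Calls of depletion or enrichment required 2 or more measured probes, a gene value 3 or more units from 0, and all its probes 2 or more units to that side. This is a rule of size, and no p-value was computed.

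The strains of most of these genes lay well below the array median after selection with each drug, and none was enriched. The exceptions were 1 probe each of POP3 and POP5. Under cycloheximide 8 of the 10 genes were depleted, against 15.2% of all genes with at least 2 measured probes. Under rapamycin 3 of the 10 had 2 measured probes and 2 of these 3 were depleted, against 6.45% of all genes. Under tunicamycin 8 had 2 measured probes and 6 of these 8 were depleted, against 13.6%. The count of enriched members was 0 on each array, where 0.0485%, 0.0747% and 0.12% of all genes were enriched under cycloheximide, rapamycin and tunicamycin. When 1 measured probe was enough for a call, 8, 6 and 8 members were depleted, against 12.8%, 11.7% and 12.5% of all genes. The pool is one of essential genes and the array carries tags of all genes, so the share over all genes includes tags outside the pool.

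The median over the members was -3.44 under cycloheximide, where all 10 had a value, and the median over all genes was -0.04. It was -6.95 under rapamycin, over the 8 members with a value, against -0.21 over all genes. Under tunicamycin it was -4.89 over 10 members, against -0.09 over all genes. On the linear scale the members' medians were 10.8-fold, 124-fold and 29.7-fold below the array median. The array median, the median over all genes and the spread unit also include tags outside the pool. These distances are therefore not distances from the other strains of the pool. Among depleted genes, the members lay on either side of the median depth. The 8 depleted members had a median of -3.72 under cycloheximide, against -3.82 over all 625 depleted genes, and 3 of the 8 lay below that median. Under rapamycin the 2 depleted members had -6.80, against -6.52 over all 259, and both lay below that median. Under tunicamycin the 6 depleted members had -4.89, against -5.49 over all 569, and all 6 lay above that median.

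**Figure D1:**
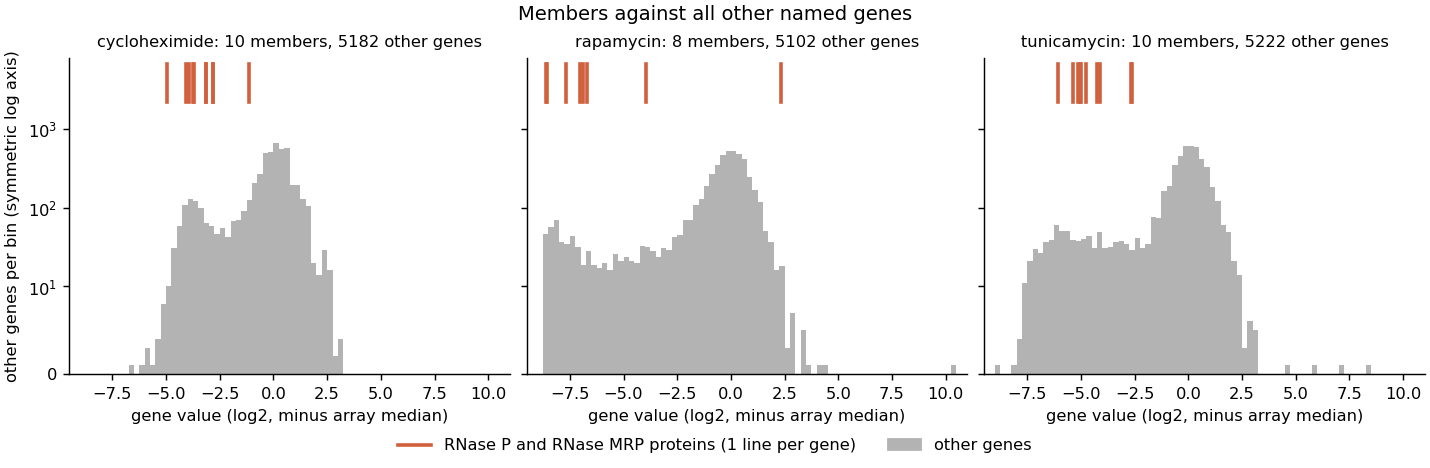
Gene values of the members (orange lines, 1 per gene) above the histogram of all other named genes (grey, bins of 0.25, symmetric log count axis) on each array, with the log2 ratio minus the array median on the horizontal axis. The other genes form a large peak near 0 and a smaller group below it, and most members lie in the smaller group, the clearest exceptions being POP5 under cycloheximide at -1.15 and POP3 under rapamycin at 2.32.

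RPR2 and SNM1 were compared because the protein of each is found in only 1 of the enzymes. The values are those of the strains of single genes and not of the enzymes. Rpr2 and Snm1 are the counterparts of the human RNase P protein Rpp21. RPR2 had probe values of -2.91 and -5.27 under cycloheximide, lower-numbered probe first here and in what follows, and -5.92 and -4.37 under tunicamycin. Its gene value was -4.09 ± 1.67 under cycloheximide and -5.15 ± 1.09 under tunicamycin (SD, n = 2 probes each), and it was depleted on both arrays. Under rapamycin its 2 spots were empty, so RNase P has no protein of its own with a value on that array.

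SNM1 had probe values of -2.65 and -4.77 under cycloheximide, against -5.67 and -3.90 under tunicamycin, and its lower-numbered probe stood at -8.56 under rapamycin, where the other was empty. Its gene value was -3.71 ± 1.49 under cycloheximide and -4.79 ± 1.25 under tunicamycin, and it too was depleted on both. The difference RPR2 minus SNM1 came to -0.38 under cycloheximide and -0.36 under tunicamycin. Each difference is smaller than the spread unit of its array and than the SD between the probes of either gene. That SD includes a gap between probes that RPR2 and SNM1 share in direction, so it does not measure the precision of their difference. Over depleted genes with 2 probes, the higher-numbered probe minus the other had a median of -1.496 under cycloheximide and 0.598 under tunicamycin. Matched by probe, RPR2 lay below SNM1 in the lower-numbered and in the higher-numbered probe on both arrays. These distances too were smaller than the spread unit, and a difference between RPR2 and SNM1 was not tested.

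Set against the shared subunits, RPR2 and SNM1 lay inside the range wherever they had a value. Under cycloheximide RPR2 differed by -0.92 and SNM1 by -0.55 from the median of the 8 shared subunits, which was -3.16, with a range of -4.95 to -1.15. With the lower-numbered probe alone the SNM1 difference was 0.19, the opposite direction. Under tunicamycin RPR2 differed by -0.51 and SNM1 by -0.15 from a shared median of -4.64, with a range of -6.05 to -2.62. Under rapamycin SNM1 differed by -1.67 from the median of -6.89 over the 7 shared subunits with a value, which ranged from -8.60 to 2.32. Over the gene values only this last distance exceeds the spread unit, and it rests on 1 probe of SNM1. With the lower-numbered probe alone for all genes it was -0.90, inside the spread unit of 1.06. Under tunicamycin that probe alone put RPR2 at -1.685 and SNM1 at -1.438 from the shared median, outside the spread unit of 0.91. RMP1 (YLR145W), the other protein found in RNase MRP and not in RNase P, was not among the chosen genes. It stood at -3.77 ± 0.10 under cycloheximide, -8.16 in its single measured probe under rapamycin and -6.83 ± 0.60 under tunicamycin, and it was depleted on the first and the last of these arrays. Under tunicamycin RMP1 thus lay below the whole range of the shared subunits, whose lowest value, that of POP5, rests on 1 probe. On the other arrays RMP1 lay inside the range.

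**Figure D2:**
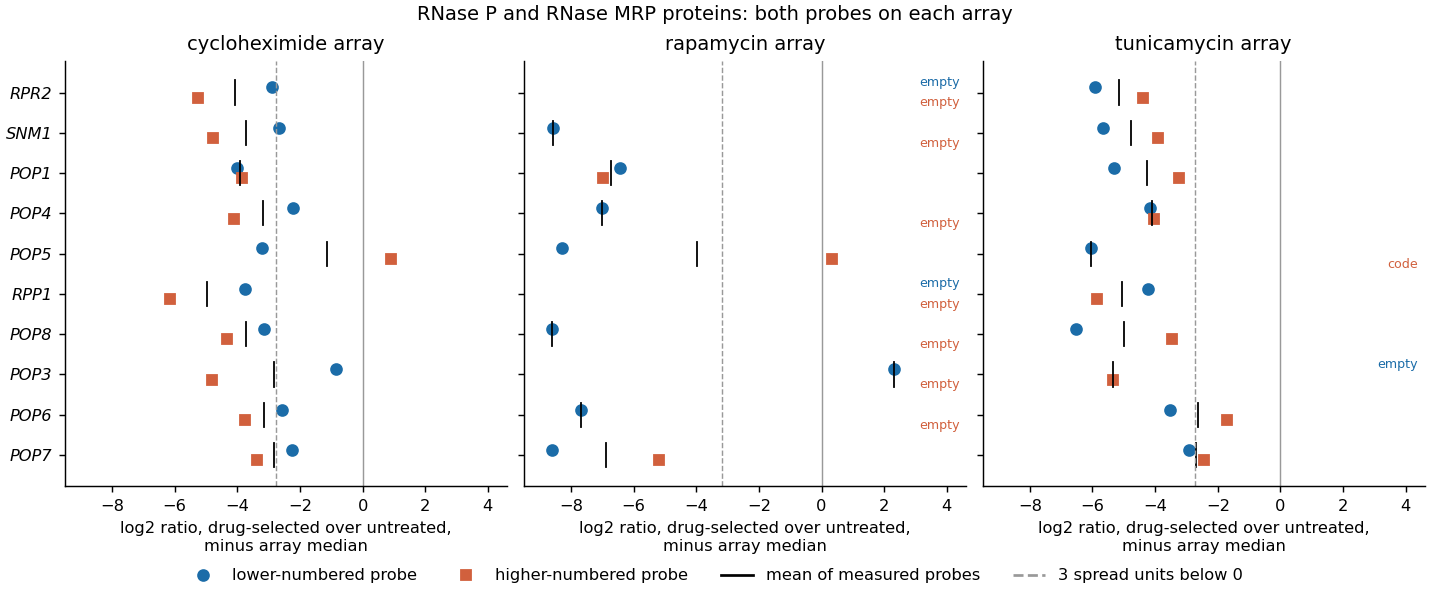
Values of the lower-numbered (blue circle) and higher-numbered (orange square) probe of each member on the 3 arrays, as log2 ratio minus the array median, with the mean of measured probes as a black bar and 3 spread units below 0 as a dashed line. Spots without a ratio are written as empty or code. Most probes lie left of the dashed line, and the exceptions far to the right are the higher-numbered probe of POP5 and the lower-numbered probe of POP3.

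POP1 and POP4 encode shared proteins that contact the RNA, and Pop1 is the largest of the proteins. The probes of POP1 lay close together under cycloheximide at -3.996 and -3.85 and under rapamycin at -6.44 and -6.97, and further apart under tunicamycin at -5.31 and -3.24. Its gene values were -3.92 ± 0.10, -6.71 ± 0.38 and -4.27 ± 1.47, and it was the only member depleted on all 3 arrays. POP4, the counterpart of human Rpp29, had -2.22 and -4.11 under cycloheximide and -4.17 and -4.03 under tunicamycin, which made it depleted on both, at -3.16 ± 1.33 and -4.10 ± 0.10. Its only measured probe under rapamycin stood at -7.02.

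RPP1 and POP5 encode the counterparts of human Rpp30 and POP5, and their products pack together with Pop8 and Pop3 in the enzyme. RPP1 was the lowest member under cycloheximide, with probes at -3.76 and -6.14 and a gene value of -4.95 ± 1.69, 30.9-fold below the array median. This was the 19th lowest value among the 4121 genes with at least 2 measured probes. Under tunicamycin its probes stood at -4.24 and -5.85 and its value was -5.04 ± 1.14, the 354th lowest of 4169. Under rapamycin its 2 spots were empty, as were those of RPR2.

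POP8 was depleted under cycloheximide at -3.73 ± 0.84 and under tunicamycin at -5.00 ± 2.17, and its only measured probe under rapamycin, at -8.60, was the lowest gene value of a member on any array. On that array the lowest deposited log2 ratio of any spot was -9.996, and those of POP8, POP7 and SNM1, at -9.92, -9.92 and -9.88, lay near this edge, so their order is not resolved. POP5 had probes that disagreed on each array. Its lower-numbered probe stood at -3.20, -8.27 and -6.05 under cycloheximide, rapamycin and tunicamycin, while its higher-numbered probe stood at 0.91 and 0.32 under the first 2 drugs and held the code under tunicamycin. The gene values of POP5, -1.15 ± 2.90 under cycloheximide and -3.97 ± 6.08 under rapamycin, therefore describe neither probe, and POP5 was not called.

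POP3 disagreed in the other direction. Its lower-numbered probe stood at -0.85 under cycloheximide and 2.32 under rapamycin and was empty under tunicamycin, while its higher-numbered probe stood at -4.79 under cycloheximide and -5.35 under tunicamycin and was empty under rapamycin. The value above 0 under rapamycin and the low value under tunicamycin thus come from different probes. In POP3 and POP5 every measured spot near or above 0 had a deposited log2 ratio equal, to 3 decimals, to that of whole numbers up to 10 (-1.585 and 1 in POP3, 0.17 and -1 in POP5). Of the members' measured spots, 2 of 20, 2 of 11 and 2 of 18 had such a value under cycloheximide, rapamycin and tunicamycin, against 66.5%, 41.0% and 64.3% of all measured spots. Whether the spots of these 2 probes carried enough signal was not tested, since no channel signals were analysed here.

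Pop6 and Pop7 form a heterodimer that binds the P3 domain of either RNA. POP6 had probes at -2.56 and -3.76 under cycloheximide, at -3.54 and -1.71 under tunicamycin, and at -7.66 in the only measured one under rapamycin. POP7 had -2.26 and -3.36 under cycloheximide, -8.60 and -5.18 under rapamycin and -2.92 and -2.45 under tunicamycin. The gene values of the pair were close to each other, with -3.16 ± 0.85 for POP6 and -2.81 ± 0.78 for POP7 under cycloheximide and -2.62 ± 1.29 and -2.68 ± 0.33 under tunicamycin. Under cycloheximide this was not particular to the pair, since POP4 had -3.16 ± 1.33 and POP3 -2.82 ± 2.79.

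POP6 and POP7 were the highest members under tunicamycin, and the only ones there with 2 measured probes and no call. Their gene values missed the threshold, 2.74 below 0, narrowly. The higher-numbered probe of POP6, at -1.71, also missed the threshold for single probes, 1.83 below 0. Both genes were called in 3 of 9 alternative settings (no centring, the threshold of 2 units and the spread unit of the non-essential background list). POP7 under cycloheximide was just inside its threshold, 2.77 below 0, and was not called when the code was kept as a ratio, with medians over probes or at 4 units. The higher-numbered probes of both genes under tunicamycin, deposited at -2.585 for POP6 and -3.322 for POP7, were likewise spots with a ratio of small whole numbers. Under rapamycin POP7 was depleted at -6.89 ± 2.42, and POP6 could not be called with 1 probe.

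The rapamycin array gave a ratio for 11 of the members' 20 spots. The other 9 were empty, 45.0%, against 12.7% of all named spots on that array, while 0 were empty under cycloheximide and 1 under tunicamycin. The higher-numbered probe was empty in 7 of 10 members and the lower-numbered in 2 of 10. Among the 6 members depleted on both other arrays 7 of 12 spots were empty under rapamycin (58.3%), and among the 504 other genes with 2 probes that were depleted on both other arrays 529 of 1008 were (52.5%). The members' share was thus near that of other genes with the same calls. The sources used here do not say what leaves a spot empty, and an empty spot was counted neither as low nor as high.

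Between arrays, the members' values differed by probe. In the 9 members whose lower-numbered probe was measured on both arrays, that probe was lower under tunicamycin than under cycloheximide in all 9, with medians of -5.31 under tunicamycin and -2.91 under cycloheximide and a median difference of -1.95. In the 9 with the higher-numbered probe on both, it was higher under tunicamycin in 8, with medians of -3.90 under tunicamycin and -4.33 under cycloheximide and a median difference of 0.86. RPR2 shows the pattern, with a tunicamycin minus cycloheximide difference of -3.02 in the lower-numbered probe and 0.89 in the other, and SNM1 had -3.02 and 0.87. RPP1 had -0.48 and 0.29.

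The gene means hide this split. Tunicamycin minus cycloheximide, they came to -1.06 in RPR2, -1.08 in SNM1 and -1.27 in POP8, and to 0.54 in POP6 and 0.13 in POP7. After quantile normalization of the arrays the sign turned in RPR2 (0.37), SNM1 (0.17), POP1 (1.03), POP4 (0.06) and RPP1 (1.65), so no direction is given for the gene means. Among the 504 other genes with 2 probes that were depleted on both arrays, the same difference had a median of -2.79 in lower-numbered probes and -0.55 in higher-numbered ones, and it was below 0 in 94.6% and 63.3% of them. An offset between the probe blocks thus runs through the arrays, and its part in the members' differences was not tested.

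**Figure D3:**
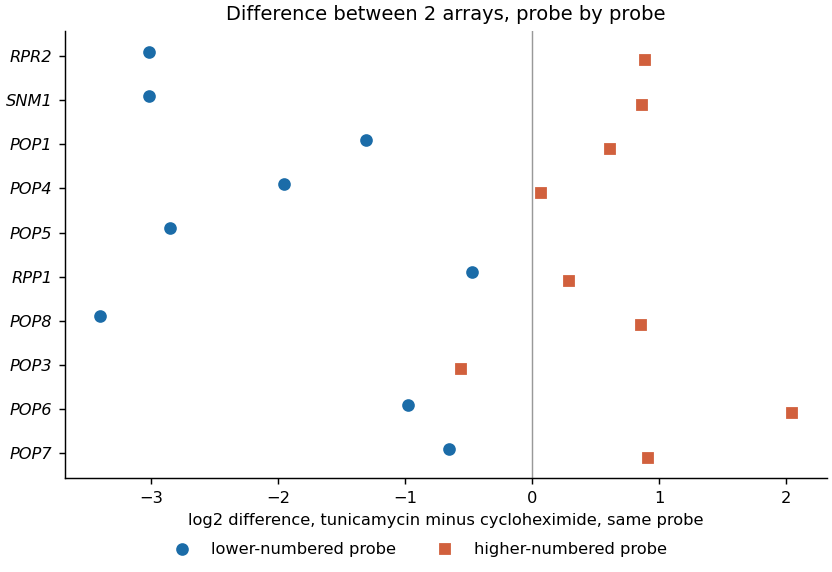
Difference in log2 value between the tunicamycin and the cycloheximide array for the lower-numbered (blue circle) and higher-numbered (orange square) probe of each member, with 0 as a grey line. The lower-numbered probes all lie left of 0, between -3.41 and -0.48, and the higher-numbered ones lie right of 0 except POP3 at -0.56.

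Under rapamycin every member with the same probe measured on both arrays was lower than under cycloheximide except POP3. The lower-numbered probe gave differences of -6.33 in POP7, -5.90 in SNM1, -5.46 in POP8, -5.10 in POP6, -5.07 in POP5, -4.80 in POP4 and -2.44 in POP1, and 3.17 in POP3. The members' median difference in that probe block was -5.09 over 8 members. Over 171 other genes depleted on both arrays it was -4.01. Lower values under rapamycin than under cycloheximide were thus common to the depleted genes, and drug and array cannot be told apart.

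Related RNA-processing genes were described in the same way. In a list of 10 genes that act on the ends and introns of tRNA precursors, the other steps that follow or accompany RNase P, the rule called depleted 2 of the 8 genes with 2 measured probes on the cycloheximide array, 1 of 5 on the rapamycin array and 3 of 10 on the tunicamycin array. The list medians were -2.71, -2.70 and -2.36. TRZ1 (YKR079C), the endonuclease that cuts the 3′ trailer as RNase P cuts the 5′ leader, was enriched under tunicamycin at 4.61 ± 0.88 (n = 2), while 0 of the 8 members with 2 measured probes there were. TRZ1 had -2.93 ± 1.82 under cycloheximide, which was not called, and -8.65 in its single measured probe under rapamycin.

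CCA1, which adds the 3′ CCA end, was depleted at -3.60 ± 0.84 under cycloheximide and -5.10 ± 1.23 under tunicamycin and was empty under rapamycin. Of the tRNA splicing endonuclease genes, SEN2 was depleted at -4.13 ± 0.99 under cycloheximide and -4.51 ± 3.14 under tunicamycin, and SEN54 at -3.92 ± 2.78 under tunicamycin. SEN15 at -2.37 ± 6.01 and SEN34 at -0.66 ± 2.16 under tunicamycin had probes that disagreed. The ligase TRL1 was depleted under rapamycin at -5.85 ± 0.87 and TPT1, which removes the phosphate left at the splice junction, had -1.76 ± 1.67, -2.99 ± 6.33 and -2.34 ± 3.95 on the arrays and was not called. LHP1 and LOS1, an RNA chaperone and a tRNA exporter that yeast can live without, had 0.59 and 0.04 under cycloheximide, 0.38 and -0.11 under rapamycin and 0.01 and 0.34 under tunicamycin.

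Other genes act on the ribosomal RNA precursor, as RNase MRP does. In a list of 12 genes of pre-rRNA cleavage and trimming the depleted share was 9 of 12 on the cycloheximide array, 2 of 5 on the rapamycin array and 8 of 12 on the tunicamycin array, with medians of -3.54, -4.59 and -4.56. GRC3, the kinase partner of the endonuclease Las1, and RCL1 were lowest under cycloheximide at -4.48 ± 0.95 and -4.36 ± 0.42, and FCF1, a nuclease of the small-subunit processome, and RCL1 under tunicamycin at -7.22 ± 2.56 and -7.01 ± 0.38. Under rapamycin RCL1 at -8.59 and FCF1 at -8.48 were lowest, with 1 probe each. Their deposited log2 ratios, -9.907 and -9.804, lay near the lowest of that array, -9.996, so their order is not resolved. The highest were RAI1, partner of the nuclease Rat1, at 1.498 ± 1.17 under cycloheximide and REX4 at 0.40 ± 0.20 under rapamycin and 0.14 under tunicamycin. The higher-numbered probe of RAI1 under cycloheximide, deposited at 1.585, was a spot with a ratio of small whole numbers.

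Among 6 assembly factors needed for processing at the A3 site, the depleted share was 3 of 6, 1 of 2 and 3 of 6 on the 3 arrays in the same order. NOP15 was the lowest on each array, at -4.31 ± 0.96, -8.60 and -5.51 ± 0.67, and RRP1 the next under cycloheximide and tunicamycin at -3.86 ± 1.56 and -4.88 ± 0.20 and under rapamycin at -8.04. Under rapamycin both values rest on 1 probe, and that of NOP15, deposited at -9.925, lay near the lowest ratio of the array. RLP7 was the highest, at 0.74, 0.28 ± 2.89 and 0.05 ± 0.33. Among 5 tRNA modification genes it was 2 of 3, 0 of 2 and 2 of 5, and the depleted genes were TAD2 and TAD3, the subunits of the tRNA adenosine deaminase, at -3.92 ± 1.41 and -4.02 ± 0.93 under cycloheximide and -7.66 ± 0.78 and -6.52 ± 1.73 under tunicamycin. TAD3 at -8.17 (1 probe) and GCD10 at -1.82 ± 1.17 were the lowest of them under rapamycin, and the highest values were those of THG1, 0.74 under cycloheximide and 0.09 under rapamycin, and of GCD10, 0.47 under tunicamycin. In a background list of 58 genes of amino acid and adenine synthesis, chosen as non-essential, 0 of 42, 0 of 48 and 0 of 38 genes were depleted. The list medians were 0.03, -0.02 and 0.07. Genes chosen as non-essential fall outside a pool of essential genes, so this list does not show what is particular to the members.

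**Figure D4:**
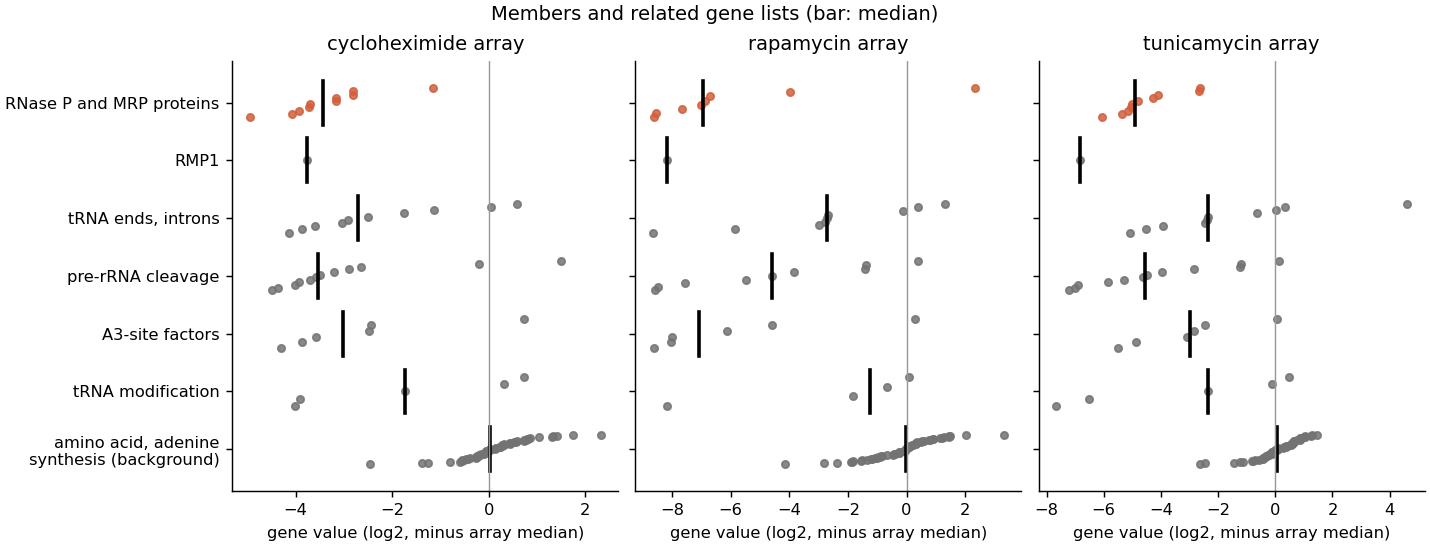
Gene values of the RNase P and RNase MRP proteins (orange, top row) and of the related lists and the background list (grey) on the 3 arrays, with the list median as a black bar and 0 as a grey line. The members' medians of -3.44, -6.95 and -4.89 lie far left of the background medians of 0.03, -0.02 and 0.07. The background genes were chosen as non-essential, while the pool is one of essential genes. TRZ1 stands alone to the right under tunicamycin.

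The genes next to the members on the chromosome were described as well. They were taken by position and not as essential genes, so tags outside the pool can be among them. Their medians are therefore no measure of what is particular to the members. Of 20 such neighbours 17 were named on the array. The members' medians of -3.44, -6.95 and -4.89 compare with medians of 0.77, -0.12 and 0.20 over their neighbours under cycloheximide, rapamycin and tunicamycin. The neighbours depleted by the rule numbered 1 of 12 on the cycloheximide array, 0 of 11 on the rapamycin array and 1 of 10 on the tunicamycin array. On both arrays the depleted neighbour was RIB5 (YBR256C), the riboflavin synthase gene beside POP4, at -4.13 ± 1.41 and -7.11 ± 1.17.

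The values of the other neighbours lay nearer to 0, except PRP45 under tunicamycin. SHG1, on the other side of POP4, had 1.32, 1.12 ± 0.18 and -0.45 on the arrays in the same order. PRP45, an essential splicing gene beside POP5, had -0.85 ± 3.65, 1.54 and -6.86, the last 2 in 1 probe each, and FUN19 on the other side had -1.29 ± 0.63, -0.37 ± 0.36 and -1.24. VLD1 and YIR016W, which flank RPR2, had 1.46 ± 1.21 and 0.19 ± 0.64 under cycloheximide and 1.17 ± 1.001 and 0.84 ± 0.87 under tunicamycin, where RPR2 stood at -5.15. SNF1 and PEX29, which flank SNM1, had 0.52 ± 1.26 (n = 10) and 1.18 ± 1.62 under cycloheximide and 0.58 ± 1.596 (n = 10) and 0.20 ± 1.29 under tunicamycin. ADE12 beside POP1, WSC2 and HCH1 beside POP3, IMO32 beside POP6, TYR1 and PEX32 beside POP7, APN2 and PEP1 beside POP8 and GIC1 beside RPP1 had no call on any array.

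**Figure D5:**
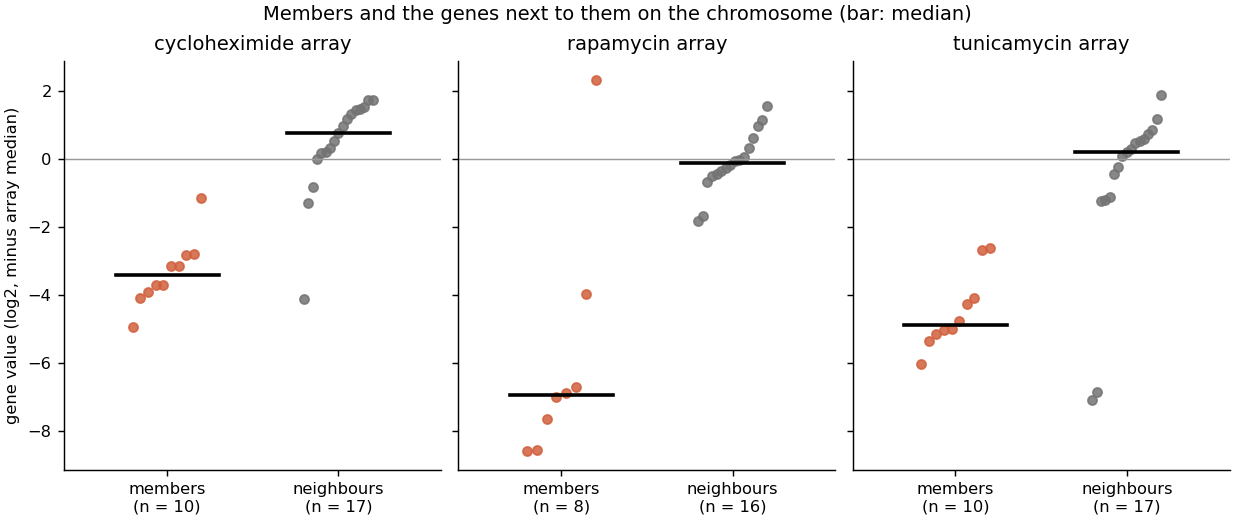
Gene values of the members (orange) and of their chromosomal neighbours (grey) on each array, with the median as a black bar and 0 as a grey line. The neighbours lie around 0 apart from RIB5 under cycloheximide and RIB5 and PRP45 under tunicamycin, and the members lie below the rest of the neighbours except POP5 under cycloheximide at -1.15, within their range, and POP3 under rapamycin at 2.32, above them.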

How the data were processed

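The deposited values are log2 ratios, 1 per spot and array; base 2 was read from the values, and the sources used here do not give the scanner, background correction or normalization. Per the labels' protocols, tag regions were amplified with dye-linked universal primers. All 3 columns of the table were used. Probes were named through the platform annotation, and symbols, locus tags and neighbouring genes come from the RefSeq table of assembly R64, which held all 10 members. No coordinates or sequences are printed, because the values carry no build and no sequence table was used here. Spots at the log2 of 100000 were left out, the array median was subtracted, and probes were averaged per gene with Python 3.11.15 and pandas 2.3.3. The arrays correlated positively over spots (r from 0.51 to 0.62). Spread units (1.4826 times the median absolute deviation) and calls were computed over all named genes and were tested on simulated data. No intensity or background filter was possible, and the number of arrays limits the precision. The members and the gene lists were chosen with earlier results of these data known. Named genes are the members, RMP1, the tRNA list, the extremes of the other lists, the neighbours and the 3 genes nearest in profile.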

Additional observations from a re-analysis of the deposited data

Results flagged for a closer look

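POP3 lay on opposite sides of 0 on 2 arrays, at 2.32 under rapamycin and -5.35 under tunicamycin, each in 1 probe and not in the same one. The difference was not tested. TRZ1 likewise lay at -8.65 under rapamycin in 1 probe and at 4.61 under tunicamycin in 2 probes, and this difference was not tested either. The higher-numbered probe of POP5 held the code, a ratio of 100000, on the tunicamycin array, the only coded spot among the members. It was used in no value given above.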

How the results depend on the processing

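With 1 array per drug no replicate could be left out. No paired analysis was possible because each drug has a single array. Of 136 recomputed counts, medians and differences from the shared subunits, 127 stayed within the spread unit of the array, or within 1.5 times for counts, and 0 of the members' medians changed sign. Some of these could not move. The mean and the median of 2 probes are equal, and a change of centring cancels in a difference from the shared subunits. The tally is therefore no measure of how robust the results are. The cycloheximide difference of SNM1 from the shared median did change sign, at 0.19 with the lower-numbered probe alone and -0.55 over both probes. The other recomputed differences of RPR2 and SNM1 from that median stayed below 0. The rapamycin median of the list of tRNA ends and introns was 1.32 with the higher-numbered probe alone and -2.70 over both probes. With 1 measured probe enough, 6 members (2 with at least 2 probes) and 15 genes of the related lists (4 with at least 2 probes) were depleted under rapamycin. At the threshold of 4 units, 4 members (8 at 3 units) and 8 genes of the related lists (17 at 3 units) were depleted under cycloheximide. The share over all genes at 4 units was not computed, so these counts cannot be set against it. The members' median was -8.27 under rapamycin without centring, and with the higher-numbered probe alone it was -5.18 under rapamycin and -3.90 under tunicamycin. With the lower-numbered probe alone RPR2 and SNM1 lay -1.685 and -1.438 from the shared median under tunicamycin. Of 189 single member values 37 moved by at least the spread unit, 20 of them when 1 probe was used alone. Of 168 recomputed differences between arrays of single members, the sign turned in 17. The tunicamycin minus cycloheximide difference of POP5 was 6.84 with the code kept as a ratio and -4.90 with it left out, and that of POP6 was -0.97 in the lower-numbered probe alone and 0.54 over both probes. The cause of these changes was not tested.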

Other observations

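Among 2540 other genes with at least 2 measured probes on every array, the 3 whose values lay nearest to the members' median profile of -3.44, -6.95 and -4.89 (Euclidean distance over the 3 arrays) were RRN7, NUF2 and GNA1. RRN7 (YJL025W), a transcription factor of RNA polymerase I, had -3.52 ± 1.68, -7.22 ± 1.89 and -4.82 ± 3.76 under cycloheximide, rapamycin and tunicamycin, at a distance of 0.29. NUF2 (YOL069W), a kinetochore protein, had -3.15 ± 0.93, -7.03 ± 0.30 and -4.84 ± 0.23, at a distance of 0.30. GNA1 (YFL017C), the acetyltransferase of UDP-GlcNAc synthesis, had -3.35 ± 0.81, -7.28 ± 0.42 and -4.85 ± 0.53, at a distance of 0.34. The distances of RRN7 and GNA1 are below the SD between their own probes on each array. That of NUF2 is above the SD of its probes under tunicamycin and about equal to that under rapamycin. In any case 3 arrays are too few points to group genes by profile.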
